A study of Mus musculus with 3 samples.

Results

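Lymphatic endothelial cells (LEC) of the mouse mesenteric lymph node were set against 2 other stromal populations of the same node, fibroblastic reticular cells (FRC) and blood endothelial cells (BEC), to ask which genes set the lymphatic lining apart from both. The cells came from wild-type C57BL/6NCrl mice with no treatment named. They were sorted after collagenase digestion and depletion of CD45-bearing cells, with CD45 and CD24 gated out, as gp38+ CD31+ (LEC), gp38+ CD31- (FRC) and gp38- CD31+ (BEC). Age, sex and the number of mice behind each RNA are not given in the sources used here, and sorted purity is stated as below complete. Each population was measured on 1 single-colour array, 3 arrays in all, so differences are unreplicated and untested. A gene counted as a member when its LEC signal was at least 4-fold above the higher, or at least 4-fold below the lower, of the FRC and BEC signals. Of 19360 genes compared, 307 (1.59%) met this rule, 201 higher in LEC and 106 lower.

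Lymphatic endothelium lines the sinuses through which lymph, antigen and immune cells pass on their way through the node. Its identity is set by the homeobox factor PROX1, and its sinus lining is known for scavenger receptors that clear material from lymph and for atypical receptors that remove chemokines. Different stretches of the lining, the ceiling and floor of the subcapsular sinus and the sinuses of the cortex and medulla, carry different markers, and a sort on gp38 and CD31 pools them. In sorted bulk RNA, fewer cells of a type and less RNA per cell cannot be told apart.

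Signals are given on the log2 scale after subtracting each array's own 75th percentile, and a fold compares arrays for the same probe. A gene was compared if a probe was well above background, by the scanner software's own mark, on any array. The share of probes well above background ranged from 59.7% (LEC) to 60.5% (FRC), and no spot was saturated. Spots of the same probe differed by a median SD of 0.0537 to 0.0576 (log2), which covers spot error alone. The spike-in controls gave a dose slope of 0.919 for BEC and 0.821 for FRC, the last marked out of range in its file header. The LEC slope was within range. However, the median spike-in signal was lowest in LEC, at 318, against 4958 in FRC and 2178 in BEC. The part this has in the differences was not tested.

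LEC had the smallest set of genes apart from both other populations. The 201 higher genes were 1.04% of the genes compared and the 106 lower genes 0.548%. By the same rule, 867 genes (4.48%) were higher and 583 (3.01%) lower in FRC, and 413 (2.13%) higher and 315 (1.63%) lower in BEC. At 2-fold, 690 genes (3.56%) were higher and 451 (2.33%) lower in LEC. These sets share all 3 arrays and are not independent. LEC lay between the 2 others for 9022 genes, above both for 5314 and below both for 5024. Over all genes compared, the median of LEC minus the higher of the others was -0.34 and that of LEC minus the lower was 0.28.

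For 115 of the 201 higher genes the nearer population was BEC, and for 86 it was FRC. The median distance to the nearer population was 2.57 (log2), or 5.92-fold. In all, 58 of the higher genes (0.3% of those compared) were at least 8-fold, 19 at least 16-fold and 4 at least 32-fold above both. For 33 of the 201 the nearer population was not well above background, so the fold is a lower bound set at the lowest signal well above background there. That lowest signal was -4.34 in FRC and -4.38 in BEC, so for genes dim in both, FRC generally counts as the nearer. The 86 genes assigned to FRC include such genes, and their assignment says nothing of which population was closer. The 106 lower genes were closer to the others, with a median of -2.43 (5.39-fold), 22 (0.114% of those compared) at least 8-fold below both and 0 at least 16-fold below. LEC itself was not well above background by any probe for 5 of them, whose folds are bounds, and for 5 more the compared probe was dim in LEC while another probe of the gene was not, so that their values, 1 of them past 8-fold, are less certain. Of the genes with an official symbol, Clca3a1 (4.01-fold) and Sdc1 (4.02-fold) lay just inside the threshold on the higher side and Lamb3 (3.98-fold) and Ptpn20 (at least 3.92-fold) just outside. On the lower side Gstm2 and Rasl11a (both 4.01-fold) lay just inside and Ecm1 (3.96-fold) and Emp1 (3.95-fold) just outside.

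**Figure D1:**
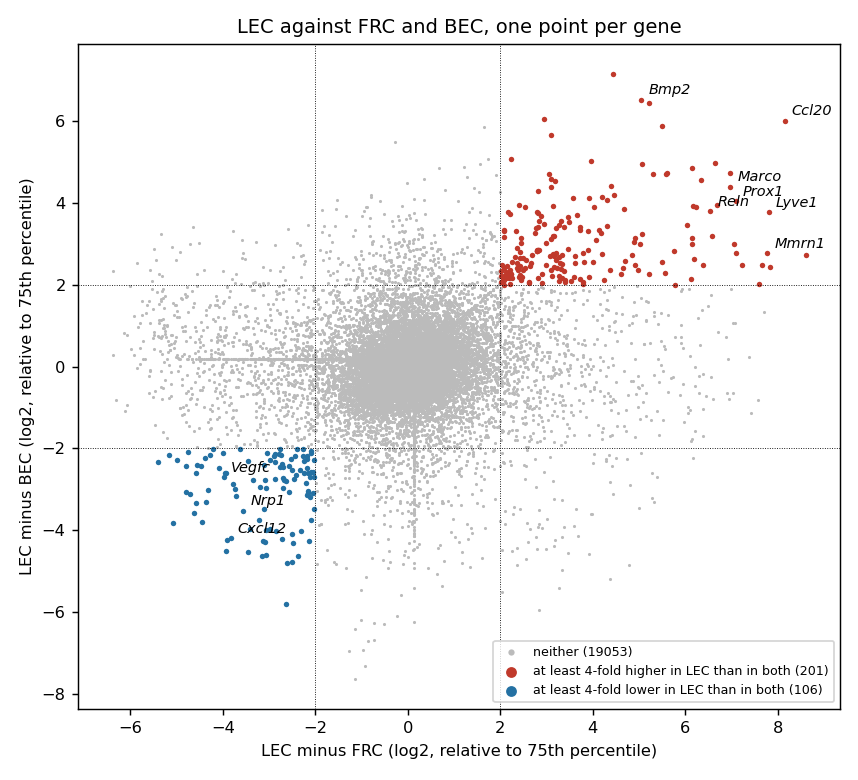
Each point is a gene compared, with LEC minus FRC on the horizontal axis and LEC minus BEC on the vertical axis (log2); red points are the 201 genes called higher in LEC, blue points the 106 called lower, and dotted lines mark 4-fold. Ccl20 and Bmp2 lie toward the upper right corner and Cxcl12 and Nrp1 toward the lower left; the straight rows of grey points come from arrays set at the lowest signal well above background.

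The labelled cell type was checked on 4 lymphatic markers, and all 4 were highest on the LEC array. Prox1, the transcription factor of lymphatic identity, was at -3.56, 3.53 and -0.51 in FRC, LEC and BEC. Lyve1, a hyaluronan receptor, was at -0.93, 6.87 and 3.09. Mmrn1, which encodes a secreted multimerin, was at -1.69, 6.08 and 3.30. Each of these stood nearer to BEC than to FRC. Reln, which encodes the secreted glycoprotein reelin, was at 2.20 in LEC and -1.60 in BEC and was not well above background in FRC. Against BEC the folds were 16.5 for Prox1, 13.8 for Lyve1, 6.87 for Mmrn1 and 13.9 for Reln. Against FRC they were 136, 224 and 218 for the first 3 and at least 92.6 for Reln. Other probes read 2.77 and 3.15 for Prox1 and 6.53 for Lyve1 above the higher of the others. The summed linear signal of the 4 markers, in units of the 75th percentile, was 0.949, 201 and 19.4 in FRC, LEC and BEC, with the dim FRC signal of Reln entered as measured. The BEC array thus carried lymphatic markers at a level above FRC, and the part this has in the sizes given against BEC was not tested.

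The probes that read these markers are 60 bases long, and their first 30 bases are shown, with the position of the whole probe on mouse build mm9 as the files give it, because every value for these genes rests on them. No annotation of exons or untranslated regions on that build was used here.
Prox1, chr1:191942646-191942705, minus strand: ggggggaataaagcagtttaaagttgtata
Lyve1, chr7:117994171-117994230, minus strand: cactttgtgtgcctttaacaaatacattat
Mmrn1, chr6:60938883-60938942, plus strand: tcctgtgagtctttccagtgtagaataaaa
Reln, chr5:21390477-21390536, minus strand: ctgtggccgttttactgacagtaactgcca

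The genes furthest above both others were, apart from Prox1, mostly not these classical markers. Ccl20, a chemokine that draws CCR6-bearing lymphocytes, was 64.9-fold above BEC and at least 283-fold above FRC, at 3.81 in LEC and -2.21 in BEC. Among genes well above background on all 3 arrays, Abca13, a large ABC transporter gene, stood at -3.46, 2.03 and -3.86 in FRC, LEC and BEC, 44.9-fold above the nearer. Its other probe read 6.17 (log2). Bmp8a and Bmp2, which encode bone morphogenetic proteins, were 37.0-fold and 32.9-fold above the nearer population, which for both was FRC. Itga2b, the integrin alpha IIb chain shared with platelets, was 31.4-fold above BEC and 99.6-fold above FRC. Hc, complement component C5, was 31.1-fold above BEC, the nearer population.

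Hc illustrates a pattern in which both other populations were equally dim, at -2.63 in FRC and -2.52 in BEC, against 2.44 in LEC. Scin, which encodes the actin-severing protein scinderin, was similar, at -3.19 in FRC and -3.15 in BEC, and LEC stood 17.8-fold above BEC. Cemip2, a hyaluronidase of the cell surface, was at -1.29, 3.03 and -1.05, or 16.8-fold. Npl, a sialic acid lyase, was 15.5-fold above the nearer population. Xlr5c and Xlr5a, related X-linked genes, were 26.1-fold and 23.9-fold above BEC. Their probes share at most 6 identical bases in a row, but whether each also matches the other's transcript was not examined.

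Lower bounds covered genes that were not well above background in FRC or BEC. Fam163a was at least 21.0-fold higher in LEC, Eno4, an enolase-family gene, at least 12.7-fold, Rtkn2 at least 11.3-fold and the claudin gene Cldn4 at least 10.4-fold. Spock3, a testican gene, was at least 9.63-fold higher and Gp1ba, a platelet glycoprotein gene, at least 8.96-fold. All 6 had LEC signals between -1.17 and 0.05. With normexp background correction, an alternative that raises dim signals, 5 of these 6 lost the call, with differences of 1.63 to 1.94 (log2). Fam163a kept it.

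**Figure D2:**
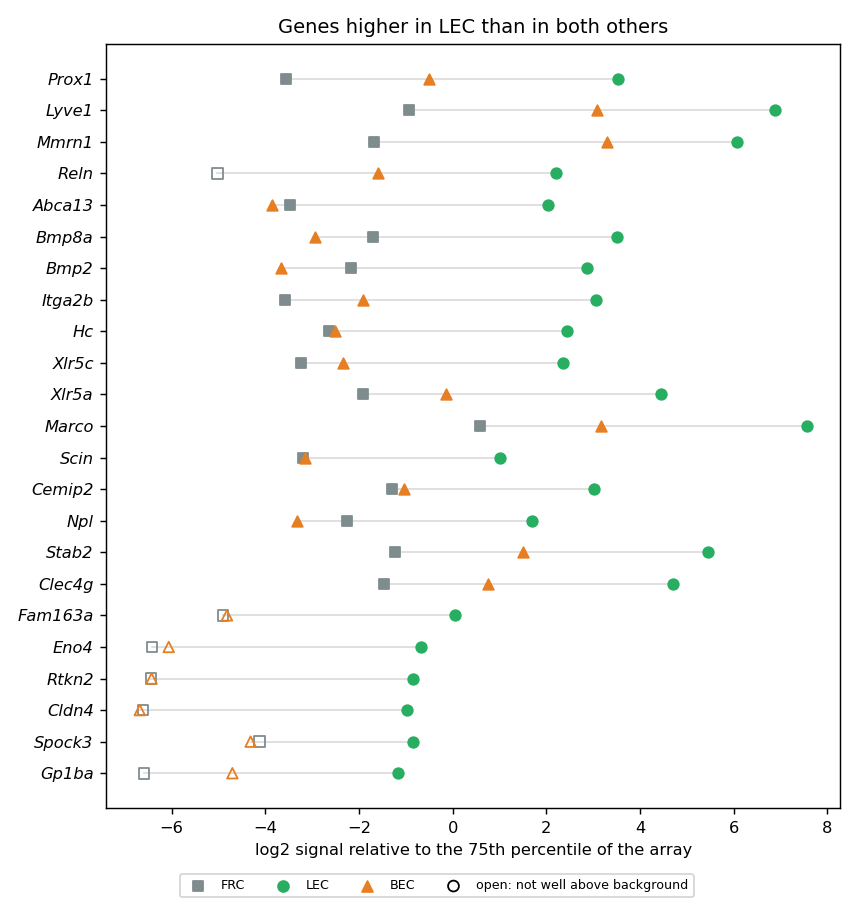
Log2 signal relative to the 75th percentile on the FRC (square), LEC (circle) and BEC (triangle) arrays for the 4 markers, the other genes with the largest differences measured on all 3 arrays and the 6 largest lower bounds; open symbols were not well above background. LEC lies to the right of both others in each row. Open symbols are drawn at the signal as measured, whereas the folds given for the lower 6 rows are bounds.

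Among 14 transcription factors of lymphatic endothelium, LEC was highest for 11, beside 27.4% of all genes. It was at least 4-fold above both for only 3, beside 1.04% of all genes. Besides Prox1, Tbx1, a T-box factor of lymphatic development, was 5.42-fold above BEC, at -2.08 (FRC), 5.75 (LEC) and 3.32 (BEC). Hoxd10 was 4.60-fold above BEC, at -2.09, 1.82 and -0.38, and fell below 4-fold with normexp (1.95, log2). The rest differed less from the nearer population. Maf stood 1.72 (log2) above FRC and Foxc2, a factor of lymphatic valves, 1.60 above BEC, while Nfatc1 stood 1.23 above BEC. Nr2f2, the partner of PROX1 in venous and lymphatic cells, was at 4.30, 4.96 and 4.22. Sox18, which acts upstream of Prox1, was at 5.42 in LEC and 6.70 in BEC, and Gata2 at 3.23 and 4.04. The medians over the list were 0.67 for LEC minus the higher and 4.47 for LEC minus the lower, beside -0.34 and 0.28 over all genes.

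Of 24 genes of lymphatic growth and valve signalling, 1 was higher and 1 lower in LEC than in both others, beside 1.04% and 0.548% of all genes. The higher gene was Itga9, an integrin chain of lymphatic valves, at 0.92 (FRC), 4.08 (LEC) and 1.38 (BEC) (6.48-fold), and its other probe read 2.85. The lower gene was Vegfc, the main lymphatic growth factor, at 4.21, 0.24 and 2.93, or 6.49-fold below BEC. Its receptor gene Flt4 was at -0.66 in LEC and -1.24 in BEC and not well above background in FRC. Kdr, the receptor shared by both endothelia, was at 6.72 and 6.18. Vegfd, Ccbe1, Adamts3 and Svep1 were highest in FRC, and Adamts3 was not well above background in LEC. These 4 genes encode a second ligand, processing factors of VEGF-C and a matrix protein. Pdpn, which encodes gp38, was at -0.83, -1.18 and -3.81 in FRC, LEC and BEC.

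After the 4 lymphatic markers, genes of the sinus floor and of the medullary and paracortical sinuses had the largest shares apart from both others. Of 8 genes of the subcapsular sinus floor, 5 were higher in LEC than in both others. Of 9 genes of the medullary and paracortical sinuses, 6 were, among them the marker Lyve1. Of 7 ceiling genes, 2 were higher, Ackr4 and the tight junction gene Cldn11 (5.57-fold above BEC and 203-fold above FRC). The background is 1.04%, but these lists were chosen with earlier results of these data known. The floor genes were Ccl20 and Itga2b, given above, Bmp2, Msr1 and Coch. Msr1, the class A scavenger receptor, was at 2.64 in LEC and -2.10 in BEC (26.7-fold), and its other probes read 4.47 and 5.08. Coch, a gene for a secreted matrix protein, was at 0.98, 3.92 and -2.14, 7.66-fold above FRC. Csf1, the macrophage growth factor, missed the threshold narrowly at 4.14, 6.07 and 2.55. Madcam1 and Glycam1, which also mark high endothelial venules, were highest in BEC.

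The higher medullary and paracortical genes other than Lyve1 were scavenger and lectin receptors. Marco, a scavenger receptor of medullary sinuses, was at 0.59, 7.57 and 3.17 in FRC, LEC and BEC, 21.1-fold above BEC. Mrc1, the mannose receptor, was at 0.96 in LEC and -3.76 in BEC (26.4-fold) and not well above background in FRC. Stab2, a receptor that clears hyaluronan, was at -1.24, 5.46 and 1.51 (15.4-fold). Clec4g, a C-type lectin of sinusoidal endothelium, was at -1.46, 4.70 and 0.76 (15.3-fold). In all 4 genes BEC was the nearer population. Cd209b, a lectin that binds microbial glycans, was 5.94-fold above BEC, and its other probe read 1.90. With normexp its difference was 1.83, below the threshold. Of the paracortical markers, Ptx3, Itih5 and Kcnj8 were all highest in FRC. Cd209a was not well above background on any array.

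Over 23 scavenger and endocytic receptors compared, the median of LEC minus the higher was 0.27. Of them, 8 were higher in LEC than in both others and 0 lower, beside 1.04% and 0.548% of all genes. Besides those above, they included Lrp2, the endocytic receptor megalin, at -2.72 in FRC and 0.33 in LEC and not well above background in BEC (8.28-fold above FRC). Stab1 was 1.34 (log2) above BEC. Cd36 was at 6.20 in LEC and 6.38 in BEC, and the HDL receptor gene Scarb1 at 2.33 and 6.38. Lrp1, Mrc2 and Vldlr were highest in FRC.

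Macrophages carry several of these receptors as well, so their own markers were read on the same arrays. Of 16 macrophage and dendritic cell markers compared, 0 passed 4-fold over both others, beside 1.04% of all genes. LEC was highest for 12 of them, beside 27.4% of all genes. C1qa was at -2.59, -0.72 and -2.33 in FRC, LEC and BEC, C1qb 1.39 (log2) above BEC and Adgre1 at -2.77 in LEC and -4.07 in BEC. Ptprc, which encodes CD45, was highest in BEC (0.23, against -1.57 in LEC). The summed signal of the list was 22.1 in FRC, 25.4 in LEC and 15.6 in BEC, in units of the 75th percentile. The part of such cells in the scavenger receptor values was not tested. Of 10 platelet markers compared, 2 were higher, Itga2b and Gp1ba, beside 1.04% of all genes. Pf4 was at 3.57 in LEC and 3.05 in BEC, Ppbp was highest in BEC and Gp9 was not well above background in LEC. The summed signal of that list was 6.04, 26.5 and 12.9, and the part of platelets in these values was not tested.

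Of 21 genes of chemokines and atypical chemokine receptors compared, 3 were higher and 2 lower in LEC than in both others, beside 1.04% and 0.548% of all genes. The higher genes were Ccl20 and the atypical receptors Ackr4 and Ackr2, which remove CCR7 ligands and inflammatory CC chemokines. Ackr4 was at -0.70, 6.52 and 4.03 in FRC, LEC and BEC (5.63-fold). Ackr2 was at 2.49, 4.91 and 2.11 (5.34-fold), and its difference was 1.86 when values were divided by the spike-in slopes. The lower genes were Ccl21a, a CCR7 ligand, at 8.66, 6.02 and 8.82 (6.25-fold), and Cxcl12. Ccl21a has near-identical copies in the mouse genome, whose transcripts this probe may not separate.

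Cxcl12, the CXCR4 ligand, depended on its probe. Its brighter probe was at 6.62, 2.78 and 6.98 in FRC, LEC and BEC, or 14.3-fold below the nearer population. Its other probe read 0.08 (log2) above the lower of the others, so it showed no such gap. Cxcr4, its receptor gene, chosen after its values were seen, was 4.94-fold below FRC. Ccl19 and Cxcl13, further homing chemokines of the node, were highest in FRC with LEC between, at 4.47 and 3.11 in LEC. Cxcl10 was 1.17 (log2) above BEC.

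Among 30 genes of BMP, TGF-beta and activin signalling compared, 2 ligand genes were higher in LEC than in both others and 2 inhibitory SMAD genes lower, beside 1.04% and 0.548% of all genes, and 26 were in neither set. Bmp2 was at -2.17, 2.87 and -3.67 in FRC, LEC and BEC, and Bmp8a at -1.70, 3.51 and -2.93. Smad6, an inhibitor that BMP signalling induces, was at 1.19, -1.50 and 1.47 (6.45-fold below FRC). Smad7 was at 0.94, -1.22 and 1.82 (4.47-fold below FRC), and its difference was -1.74 with normexp. Id1 and Id3, common targets of the pathway, were also lowest in LEC, by 1.74 and 1.24 (log2), without reaching 4-fold. Id2, of the same list, was not: LEC lay between the others, at 4.28, 3.62 and 3.41 in FRC, LEC and BEC. Other ligand genes differed in position. Bmp4 was 0.96 and Gdf15 1.34 above BEC, Bmp6 and Inhba lay between the others, and Inhbb, an activin subunit gene, was lowest in LEC by 1.78. Bmper, Grem1, Chrdl1 and Fst, extracellular antagonists or modulators, were highest in FRC. Chosen after their values were seen were Smad1, Id4 and Atoh8. Smad1, a SMAD that carries the BMP signal, was 4.43-fold above FRC, and Id4 and Atoh8 were 4.23-fold and 4.31-fold below the nearer population.

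**Figure D3:**
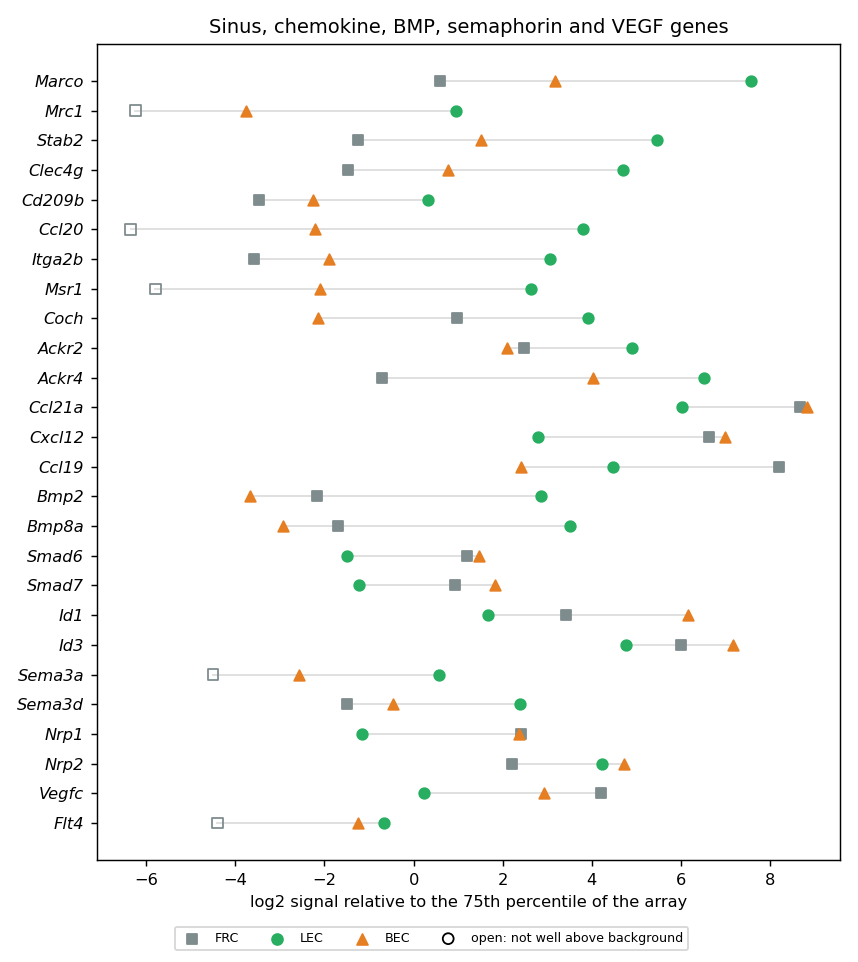
Log2 signal relative to the 75th percentile on the FRC (square), LEC (circle) and BEC (triangle) arrays for sinus, chemokine, BMP, semaphorin and VEGF genes; open symbols were not well above background. Marco, Ccl20, Bmp2 and Sema3a have LEC furthest right, and Ccl21a, Smad6, Nrp1 and Vegfc have LEC furthest left.

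Of 27 genes of guidance and neural signalling compared, 5 were higher in LEC than in both others and 1 lower, beside 1.04% and 0.548% of all genes, and 21 were in neither set. Sema3a, a repelling semaphorin that shapes lymphatic valves, was at 0.58 in LEC and -2.57 in BEC (8.84-fold) and not well above background in FRC. Its other probe read 3.49. Sema3d was at -1.50, 2.39 and -0.46 (7.20-fold), and Unc5b, a netrin receptor, at -0.68, 2.93 and 0.21 (6.58-fold). Nrp1, the co-receptor of SEMA3A and of VEGF-A, was at 2.40, -1.15 and 2.37 in FRC, LEC and BEC, 11.5-fold below BEC, and its other probes read -4.62 and -3.06. Nrp2, which binds VEGF-C, was at 2.20, 4.23 and 4.71. Gria3, a glutamate receptor gene, was 8.61-fold above FRC, but its 2 other probes read -0.59 and 3.53. Nts, which encodes neurotensin, was 0.84 above BEC.

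Of 36 matrix proteins and proteases, 6 were higher in LEC than in both others and 0 lower, beside 1.04% and 0.548% of all genes. Besides Reln, Mmrn1 and Coch, Tnc, which encodes the adhesion-modulating protein tenascin C, was at 0.91, 5.05 and 1.72 in FRC, LEC and BEC (10.1-fold), and its other probes read 3.80 and 4.47. Col12a1, a collagen that decorates fibrils, was at 0.31, 2.84 and -1.07 (5.80-fold), with 2.70 for its other probe. Mmp9, the gelatinase B gene, was 21.8-fold above FRC, at -1.67 and 2.78, with 3.49 for its other probe. It was not well above background in BEC. The fibrillar collagens Col1a1 and Col3a1 were highest in FRC, and the basement membrane genes Col4a1, Col4a2, Hspg2 and Lama5 highest in BEC.

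Of 22 shared endothelial genes, 0 were apart from both others by 4-fold in either direction. The share over all genes, 1.59%, stands beside this list and those that follow here. LEC stood between the others for 16 of the 22, beside 46.6% of all genes. Of 22 junction genes, Cldn11 was higher, while Cldn5 was at 8.50 in LEC and 7.76 in BEC. Of 27 genes of fatty acid and cholesterol handling, Lrp2 was higher and Pltp, phospholipid transfer protein, lower, at -0.22 (FRC), -2.85 (LEC) and 2.97 (BEC) (6.18-fold). With normexp the Pltp difference was -1.46. Of 10 sphingosine-1-phosphate genes, Plpp3, a lipid phosphatase that degrades the lysophospholipid, was lower (4.76-fold below BEC), while the exporter gene Spns2 was at 3.70 in LEC and 3.78 in BEC. Of 9 TNF-family receptors, Fas was lower at 4.02-fold, and its call was lost under 4 of 9 alternatives. None of the 14 leukocyte growth factors or the 14 genes of tolerance and antigen presentation compared was apart. Cd274, which encodes PD-L1, was at 2.63 in LEC and 2.42 in BEC.

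**Figure D4:**
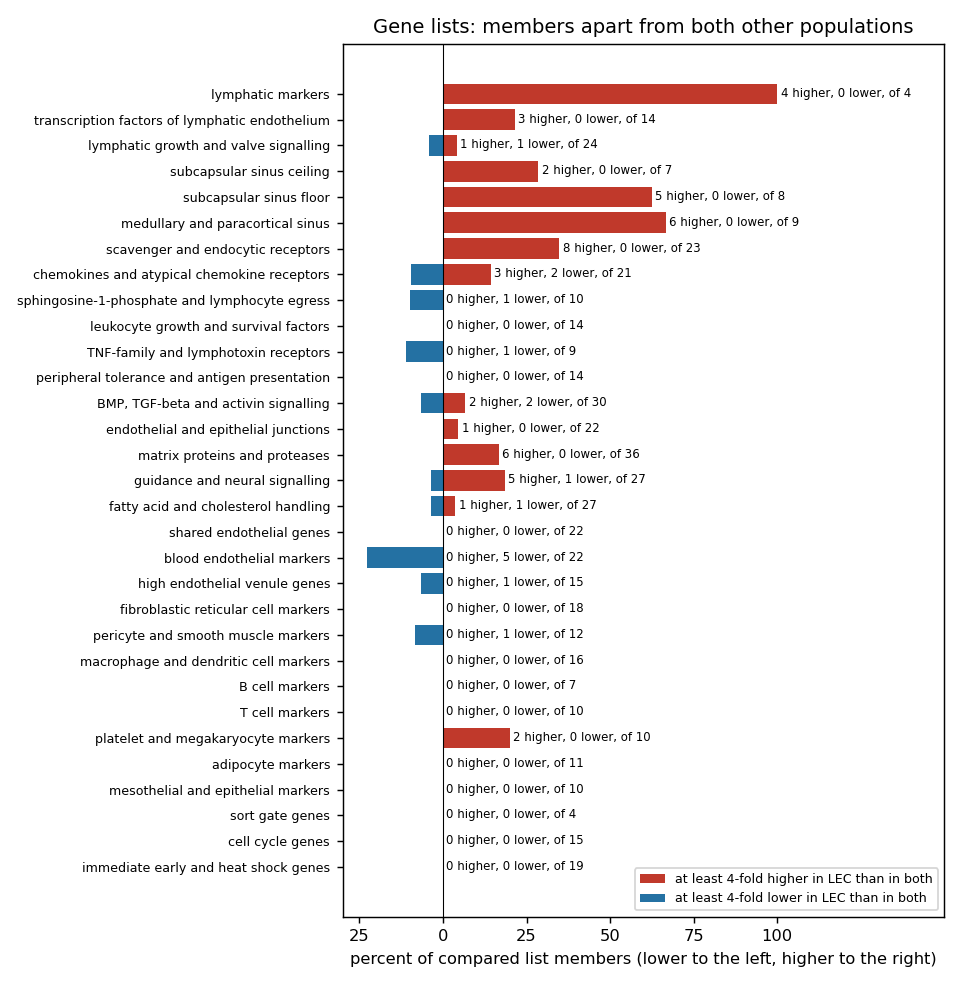
For each gene list, the percent of compared members past 4-fold over both others (red, to the right) or below both (blue, to the left), with the counts printed. The medullary and paracortical list (6 of 9) and the sinus floor list (5 of 8) reach furthest to the right after the 4 lymphatic markers, and blood endothelial markers furthest to the left with 5 of 22.

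Among the lower genes were markers of blood vessels. The rule for a lower call requires signal in FRC as well as BEC, so FRC signal for these markers follows from the rule. Of 22 blood endothelial markers, 5 were lower in LEC than in both others and 0 higher, beside 0.548% of all genes. Cd34, a sialomucin of vessels and fibroblasts, was at 7.12, 3.70 and 7.66 in FRC, LEC and BEC (a difference of -3.42, log2). Ly6a, which encodes the surface protein Sca-1, was at 6.65, 2.75 and 6.98 (-3.91), and Ly6c1 at 5.17, 2.55 and 7.35 (6.12-fold). The other 2 were Nrp1 and Cxcl12. Most remaining markers, such as Flt1, Vwf and Emcn, had LEC between FRC and BEC, at 2.47, 2.49 and 3.86. Of 12 pericyte and smooth muscle markers, Notch3 was lower (4.56-fold), at 2.52 (FRC), 0.33 (LEC) and 2.52 (BEC), and 0 were higher. No FRC, B cell, T cell, adipocyte, mesothelial or epithelial, cell cycle or stress-response list had a member apart from both. Over all genes, 1.59% were apart from both.

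Among the largest measured gaps on the lower side, Alpl, tissue-nonspecific alkaline phosphatase, was at 1.69, -2.25 and 2.26 in FRC, LEC and BEC, 15.4-fold below the nearer. Snai2, a zinc-finger repressor of mesenchymal cells, was at 3.66, -0.80 and 3.01 (-3.80, log2). Efhd1, a calcium-binding mitochondrial protein gene, was 14.1-fold below BEC, with -3.08 for its other probe. Cyp2j9, a cytochrome P450 gene, was 12.0-fold below BEC and the ectonucleotidase gene Enpp3 10.1-fold. Gask1b was 9.34-fold below FRC. Ankrd29 was 8.95-fold below BEC and Ly6c2 8.76-fold below FRC. Igfbp3, an insulin-like growth factor binding protein, was 8.88-fold below FRC, and its other probes read -4.75 and -1.19. Tmem255a was 8.59-fold below BEC through its brightest probe, but its other probe read 0.05. Tmigd1, not well above background in LEC, was at least 8.53-fold below FRC. The further bounds were at least 5.60-fold for Eps8, 5.34-fold for Tmem178 and 4.51-fold for Tox3. With normexp all 4 of these bounds lost the call, at -1.24 for Tmigd1, -0.94 for Eps8, -0.80 for Tmem178 and -0.65 for Tox3. Eps8 also lost it with the mean over probes (-1.03) and Tox3 with the spike-in slopes (-1.72).

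**Figure D5:**
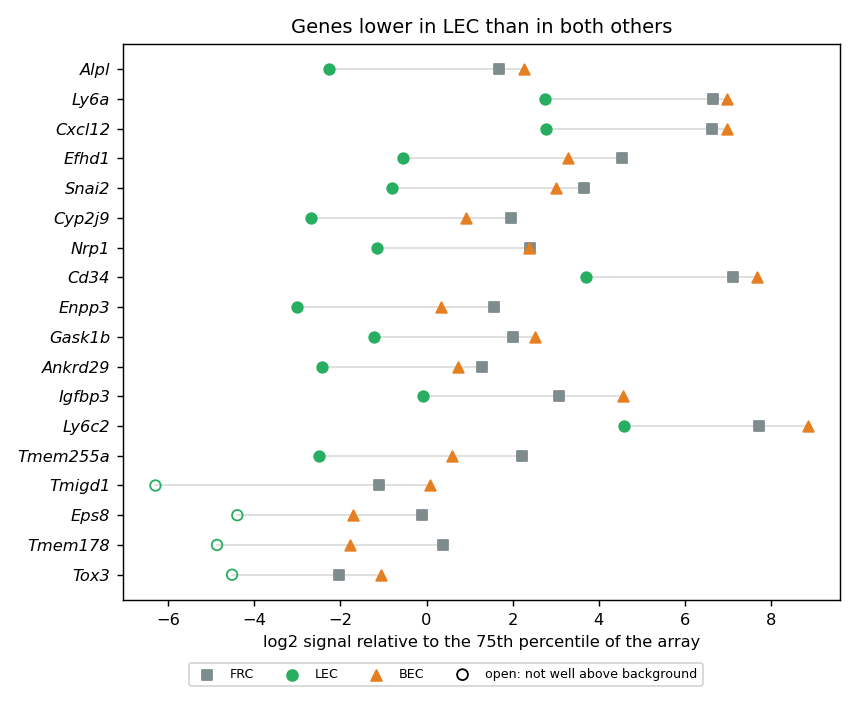
Log2 signal relative to the 75th percentile on the FRC (square), LEC (circle) and BEC (triangle) arrays for the genes furthest below both others. The first 14 were well above background on all 3 arrays, and the folds given for the last 4 are bounds. Open symbols were not well above background and are drawn at the signal as measured. LEC lies to the left in each row, while FRC and BEC often lie close together, as for Cd34, Nrp1 and Cxcl12.

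Proximal promoters of the called genes were described from the RefSeq table on build GRCm38.p6, over the 250 bases before the gene start, with the first listed start taken per gene. They matched for 144 higher and 76 lower genes of 12231 genes compared that had an entry. The short ETS motif AGGAAG was present on either strand in 38.2% of the higher, 27.6% of the lower and 28.0% of all promoters. AGATAA, the letters of the GATA motif, were in 8.33%, 3.95% and 6.99%, and the SOX letters AACAAT in 8.33%, 5.26% and 6.06%. The forkhead letters TGTTTAC were in 2.08%, 0% and 2.44%, the MAF letters TGCTGAC in 3.47%, 2.63% and 3.09%, and TATAAA in 11.1%, 11.8% and 8.75%. No motif contains another, and a match describes letters, not binding. The median count of CG dinucleotides was 9 in the higher, 10 in the lower and 14 in all promoters.

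Promoters of the markers with an entry, of the furthest higher gene, Ccl20, and of 2 of the lower genes are shown as examples from both directions, in lower case with motif matches in capitals. Lyve1 had no entry. Whether the first listed start of each gene is the one used in these cells was not examined, so a stretch shown may not be its active promoter. Ccl20 holds the ETS letters 140 and 238 bases before the start, Alpl 235 bases and Cd34 142 bases before it. Prox1 holds TATAAA on the opposite strand 34 bases before the start, Mmrn1 the SOX letters 231 bases before it, and Reln none of the 6 motifs in a stretch of 80.0% G and C.
Prox1, chr1:190170828-190171077, minus strand: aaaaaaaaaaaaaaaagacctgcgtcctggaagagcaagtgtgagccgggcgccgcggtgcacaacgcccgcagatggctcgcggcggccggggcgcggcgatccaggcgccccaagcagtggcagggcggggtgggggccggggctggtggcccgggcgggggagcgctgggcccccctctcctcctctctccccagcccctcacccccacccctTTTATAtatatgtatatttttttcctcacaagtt
Mmrn1, chr6:60944067-60944316, plus strand: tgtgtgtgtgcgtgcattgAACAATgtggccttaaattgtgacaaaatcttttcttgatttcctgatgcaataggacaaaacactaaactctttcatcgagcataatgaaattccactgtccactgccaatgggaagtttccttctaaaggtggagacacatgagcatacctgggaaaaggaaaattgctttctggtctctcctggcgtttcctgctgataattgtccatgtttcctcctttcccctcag
Reln, chr5:22344706-22344955, minus strand: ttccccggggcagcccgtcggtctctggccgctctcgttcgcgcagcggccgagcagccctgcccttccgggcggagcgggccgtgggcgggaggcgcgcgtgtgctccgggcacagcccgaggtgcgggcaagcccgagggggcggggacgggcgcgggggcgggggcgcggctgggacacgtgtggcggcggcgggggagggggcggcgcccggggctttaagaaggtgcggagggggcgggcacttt
Ccl20, chr1:83116516-83116765, plus strand: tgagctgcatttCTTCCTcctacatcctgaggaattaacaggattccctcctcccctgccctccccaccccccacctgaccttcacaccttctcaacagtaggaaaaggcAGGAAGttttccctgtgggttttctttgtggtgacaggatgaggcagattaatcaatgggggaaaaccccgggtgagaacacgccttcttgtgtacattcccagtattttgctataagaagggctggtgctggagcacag
Alpl, chr4:137796385-137796634, minus strand: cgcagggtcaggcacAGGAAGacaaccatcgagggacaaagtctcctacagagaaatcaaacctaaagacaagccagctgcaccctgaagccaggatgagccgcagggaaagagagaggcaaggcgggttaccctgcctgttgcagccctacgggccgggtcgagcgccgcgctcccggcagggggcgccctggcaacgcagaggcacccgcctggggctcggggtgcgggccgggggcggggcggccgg
Cd34, chr1:194938571-194938820, plus strand: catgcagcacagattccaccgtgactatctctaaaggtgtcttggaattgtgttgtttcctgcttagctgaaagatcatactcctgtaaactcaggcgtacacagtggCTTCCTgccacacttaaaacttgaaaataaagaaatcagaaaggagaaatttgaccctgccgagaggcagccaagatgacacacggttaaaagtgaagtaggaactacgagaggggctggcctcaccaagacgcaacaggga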

How the data were processed

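Gene expression was measured on 3 single-colour Agilent mouse arrays of 1 slide, 1 per sorted population. Per the submitters' processing notes, the scanner files come from Agilent Feature Extraction 10.7.3.1. Per the file headers, the deposited intensity values were background-subtracted and detrended within each array, with surrogates for low values. The authors' deposited value table also holds linear intensity values. Its columns, once sorted, differ by at most 0.0304%, as quantile normalization leaves them, and across probes its log2 values follow the scanner values of the same array (r from 0.999976 to 0.999981). The tool used for it is not stated in these sources.

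Outlier spots were dropped, which removed 18 probes, and replicate spots were averaged over 41156 probes. Values are log2 of the processed signal minus the 75th percentile of the array (386 in FRC, 268 in LEC, 361 in BEC), so the number of arrays limits precision. Gene names were updated by RefSeq accession (26783 probes matched). Where several probes read a gene, the brightest on average represents it. Where all probes of a gene were dim on an array, its value there was replaced by the larger of itself and the lowest signal well above background, making the fold a bound. A call also required the gene's own probe to be well above background on the brighter side. The members, the 31 gene lists and the motifs were chosen with earlier results of these data known. Named were the 14 largest measured differences and the 6 largest bounds per direction, of which 4 bounds had official symbols on the lower side, the 4 markers, list members, and the genes beside the threshold. The steps were tested on simulated data. Tools were Python 3.11.15 with pandas, and R 4.3.3 with limma 3.58.1 for normexp (offset 50). Alternatives covered background correction, scaling, the spike-in slope, the filter on dim probes, the probe chosen and the fold threshold.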

Additional observations from a re-analysis of the deposited data

How the results depend on the processing

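No result has a replicate, so the limits are those of 3 arrays. The counts were 201 higher and 106 lower genes. With normexp they were 103 and 47, of which 102 and 47 were among the main calls. With no filter on dim probes the higher count was 302, and with genes well above background on all arrays it was 124. At 2-fold the counts were 690 and 451, and at 8-fold 58 and 22. Of 419 distinct list genes compared, 30 were higher and 13 lower, beside 1.04% and 0.548% of all genes. The counts for these list genes were 55 and 34 at 2-fold and 18 and 4 at 8-fold. Divided by the spike-in slopes, 22 list genes were lower. Other scalings and the choice of probe left 180 to 264 higher and 82 to 130 lower genes. However, most called genes had no other probe to compare. Another probe, well above background in LEC (higher genes) or in both others (lower genes), existed for 58 higher and 37 lower genes. All such probes were past 4-fold for 35 higher and 12 lower genes, and none was for 17 and 21. For 2 higher and 5 lower genes none lay even on the same side. All 4 lymphatic markers were called under 9 of 11 alternatives and 3 of them under the others, where Reln (not well above background on every array) was not compared or Mmrn1 missed 8-fold. Of 73 named genes called, 49 kept the call under every alternative tried for them. With the probe of smallest difference, Cxcl12 (0.084), Gria3 (-0.59) and Tmem255a (0.050) changed sign, which that alternative's other probe shows. The cause of the other changes was not tested. Signals near background limit the genes given as bounds. No paired analysis was possible because each population has 1 array.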

Other observations

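The genes below were chosen after their values were seen and belong to no list above. They are single examples and describe no group. C5ar2, a receptor for C5a, was 7.99-fold above BEC, at -1.38 (FRC), 4.75 (LEC) and 1.76 (BEC). F8, coagulation factor VIII, was 7.99-fold above BEC, Cd55, which limits complement on cell surfaces and whose probe shares a run of 26 bases with that of its copy Cd55b, 5.18-fold above the nearer population, and Cfp, properdin, 4.24-fold. Slc18a1, a vesicular monoamine transporter gene, was 29.2-fold above BEC, Slc38a4 3.91 (log2) above FRC and Slc16a12 9.42-fold above BEC, whereas the organic anion transporter gene Slco2b1 was 4.54-fold below the nearer population. Cpe, carboxypeptidase E, was at 0.37, 6.95 and 3.76 (9.10-fold), and Scg5, a secretory granule gene, was at -0.24 in LEC (11.9-fold above FRC). Cmah, which modifies sialic acid, was 3.46 (log2) above FRC, whereas St6gal1, a sialyltransferase, was 6.67-fold below BEC. Ltb, lymphotoxin beta, was at 2.19, 6.56 and 4.21 (5.11-fold), and Pdgfa 4.70-fold above BEC.

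On the lower side, Ly6i was at 3.79, 0.82 and 4.79 in FRC, LEC and BEC (7.84-fold), and Ly6f was 4.33-fold below FRC. Ly6a, Ly6c1 and Ly6c2, of the same family, are given above. How many family members were compared was not counted, so no share of the family is given. The probes of these 5 genes share runs of 5 to 10 identical bases. Whether a probe also matches another member's transcript was not examined. Lower receptor genes included P2ry2 (8.39-fold below FRC), Lpar4 (8.12-fold below BEC), the angiotensin receptor gene Agtr1a (5.43-fold below BEC) and the endothelin receptor gene Ednra (4.89-fold below BEC). Spry4 and Spred1, inhibitors of growth factor signalling, were 5.22-fold and 5.53-fold below FRC.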
